A study of Mus musculus with 8 samples.

Results

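The oligodendrocyte lineage genes considered here were 9 genes chosen by name: Pdgfra, Cspg4, Gpr17, Enpp2, Omg, Myrf, Cnp, Mbp and Opalin. All 9 were found, by symbol, among the 20512 named genes of the exon table and among the 18655 named genes of the intron table. They were followed in neural progenitor cells (NPC) of 1 clone, which came from differentiating F1-21.6, a hybrid line of mouse embryonic stem cells (ESC), and in F1-21.6 itself. Both carry the 129Sv-Cast/EiJ background, and the ESC were grown with serum and leukaemia inhibitory factor on inactivated mouse embryonic fibroblasts. No genotype, drug or age distinguishes the groups. The comparison is one of cell state together with the culture that goes with it, and these cannot be told apart here. It rests on a single NPC clone. Each cell type had 2 biological replicates with 2 technical libraries each, 8 libraries in all, made from total RNA after removal of ribosomal RNA and read as 50 bp single ends. The exon table gives 1 pooled value per cell type in RPKM, a read density scaled for gene length and sequencing depth, so its levels carry no replicate spread. The intron table gives 1 value per biological replicate.

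Oligodendrocytes are the myelin-forming glia of the central nervous system. They arise from precursors that divide in response to platelet-derived growth factor, whose receptor Pdgfra and the surface proteoglycan Cspg4 (NG2) define the precursor stage. Gpr17, an orphan G protein-coupled receptor, appears briefly when a precursor commits to differentiation. Myrf, a membrane-bound transcription factor, then switches on the myelin programme, which includes Mbp, the protein that compacts the myelin sheath, Cnp, a cyclic nucleotide phosphodiesterase of non-compact myelin, and Opalin, a membrane glycoprotein of the sheath. Enpp2 (autotaxin), a secreted enzyme that makes lysophosphatidic acid, and Omg, a lipid-anchored ligand of the Nogo receptor, are also made by differentiating oligodendrocytes, and Omg by neurons too. Several of these genes have other uses: Pdgfra marks mesenchyme and primitive endoderm, and Cspg4 marks pericytes.

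RefSeq promoters (build GRCm38.p6, 250 bases before to 50 after the start) were available for 4 of the 9 genes, Pdgfra, Cspg4, Cnp and Opalin. The precursor receptor Pdgfra, the myelin gene with the highest level in NPC (Cnp) and a late myelin gene that was low in both cell types (Opalin) are shown, with CpG dinucleotides in capitals. The expression files use build mm9, so these starts were not matched to theirs by coordinate.

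Pdgfra, chr5:75152001-75152300, plus strand: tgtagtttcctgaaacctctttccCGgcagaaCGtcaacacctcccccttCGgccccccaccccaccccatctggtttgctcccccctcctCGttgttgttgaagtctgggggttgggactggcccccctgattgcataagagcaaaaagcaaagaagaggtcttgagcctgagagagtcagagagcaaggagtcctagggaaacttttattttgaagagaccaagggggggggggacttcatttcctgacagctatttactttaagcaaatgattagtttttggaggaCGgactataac
Cnp, chr11:100574689-100574988, plus strand: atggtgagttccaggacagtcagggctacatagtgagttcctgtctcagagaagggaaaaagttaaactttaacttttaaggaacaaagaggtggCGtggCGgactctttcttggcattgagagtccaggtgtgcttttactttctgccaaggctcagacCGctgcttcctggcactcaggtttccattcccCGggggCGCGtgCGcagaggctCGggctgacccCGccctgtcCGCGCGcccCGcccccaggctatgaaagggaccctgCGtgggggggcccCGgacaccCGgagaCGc
Opalin, chr19:41077064-41077363, minus strand: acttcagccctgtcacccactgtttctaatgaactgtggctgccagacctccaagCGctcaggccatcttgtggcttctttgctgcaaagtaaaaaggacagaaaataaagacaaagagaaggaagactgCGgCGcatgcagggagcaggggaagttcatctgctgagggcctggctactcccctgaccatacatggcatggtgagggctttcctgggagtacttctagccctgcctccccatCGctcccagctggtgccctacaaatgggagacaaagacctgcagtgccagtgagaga

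The Cnp promoter holds 17 CpG dinucleotides, and 70.3% of the 32851 mouse promoters of this length hold as many or fewer. The Pdgfra and Opalin promoters hold 5 and 4, against a median of 7 over all promoters. The letters CTGGNAC, which lie in the binding motif reported for Myrf, occur 2 times in the Cnp window and 1 time in the Opalin window, both strands counted, and not in the Pdgfra window. They occur in 19.3% of all promoters. E-boxes (CANNTG, the letters bound by Olig factors, the same on both strands) occur 2 times in the Pdgfra window, 1 time in the Cnp window and 3 times in the Opalin window, and in 72.3% of all promoters. The SOX-type letters ACAAAG occur 1 time in the Cnp and 2 times in the Opalin window (18.7% of all promoters), and ACAATG occurs in none of the 3 (12.6%).

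In exons, 5 of the 9 genes reached a mean of 1 RPKM over both cell types. By the authors' deposited table, 3 of these 5 rose in NPC (Omg, Cnp and Enpp2), 1 fell (Myrf) and Pdgfra was not called, at an adjusted p of 0.05. Among all 12509 genes tested at this level, 66.2% were called, 32.3% higher and 33.9% lower, so a high share of called genes is no particular feature of these 5. The median log2 fold change of the 5 genes was 3.47, against -0.07 over all genes tested. Over all 9 genes it was 0.58, and over the 4 genes below 1 RPKM it was -1.44. Omg, Enpp2 and Myrf reached the mean of 1 RPKM through 1 cell type only, so the median of the 5 does not describe the 9. The other 4 genes, Cspg4, Gpr17, Mbp and Opalin, lay below 1 RPKM in both cell types. As a gauge of background, receptor genes of smell and pheromone sensing, which neither cell type is known to use, had a median of 0.274 RPKM in NPC and 0 RPKM in ESC over 1428 genes. In bulk RNA, fewer cells of a type and less RNA per cell cannot be told apart.

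**Figure D1:**
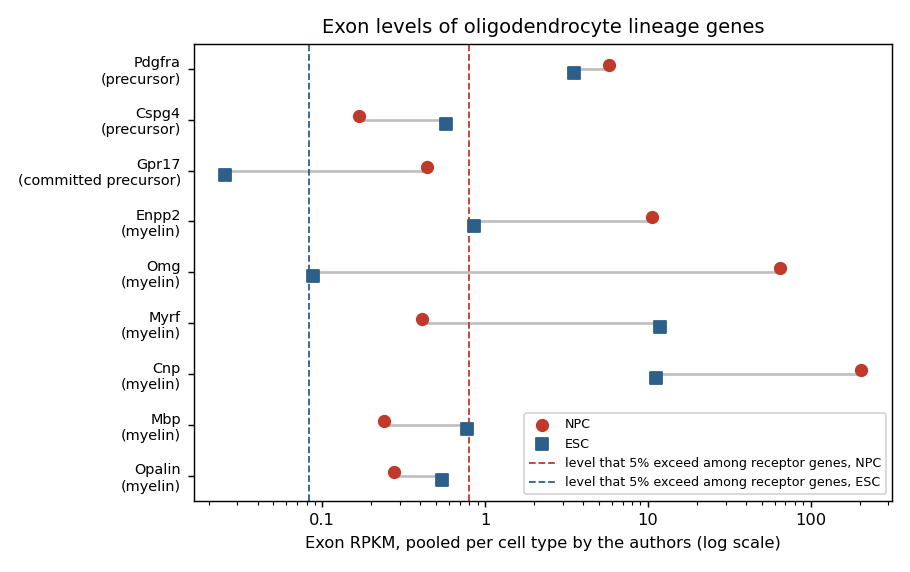
Exon RPKM of the 9 genes on a log axis, pooled per cell type by the authors, with NPC as circles and ESC as squares. Dashed lines give the 95th percentile of olfactory and vomeronasal receptor genes, 0.793 RPKM in NPC and 0.0826 RPKM in ESC. Cnp, Omg, Enpp2 and Pdgfra lie right of the NPC line in NPC, and the other 5 genes lie left of it.

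Of the precursor genes, Pdgfra was expressed at a low level in both cell types, 5.80 RPKM in NPC and 3.50 RPKM in ESC. Its log2 fold change in the authors' deposited table was 0.58 (adjusted p = 0.0915), which did not pass. Cspg4 was at 0.168 RPKM in NPC and 0.571 RPKM in ESC. Without a filter on level, Cspg4 passed as lower in NPC in the authors' deposited table (log2 fold change -1.96, adjusted p = 0.0123), where 14.2% of the 5653 genes with a mean below 1 RPKM were called. Of the smell and pheromone receptor genes, 0.0700% lay at or above Pdgfra in NPC and 68.3% at or above Cspg4, so in the clone Pdgfra stood above that background and Cspg4 within it.

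Gpr17, the gene of commitment, was at 0.439 RPKM in NPC and 0.0254 RPKM in ESC. It also passed without the filter, as higher in NPC in the authors' deposited table (log2 fold change 3.31, adjusted p = 0.0299). At or above the Gpr17 level in NPC lay 25.8% of the smell and pheromone receptor genes, and at or above its level in ESC 29.5%. The Gpr17 value in NPC was therefore within the range of genes with no known role there. How far that background enters the Gpr17 call was not tested.

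The secreted enzyme gene Enpp2 rose to 10.6 RPKM in NPC, against 0.854 RPKM in ESC (authors' deposited table, log2 fold change 3.47, adjusted p = 9.09e-22). Omg, the Nogo receptor ligand, rose to 64.8 RPKM in NPC, against 0.0881 RPKM in ESC, where it was nearly silent. Its log2 fold change of 9.22 (adjusted p = 1.77e-58) was the 5th largest among the 4040 genes that rose in the authors' deposited table. Cnp had the highest level of the 9 genes in NPC, 203 RPKM, against 11.2 RPKM in ESC (authors' deposited table, log2 fold change 4.02, adjusted p = 1.24e-62). Cnp was thus also present in ESC, at a level like that of Enpp2 in NPC.

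The regulator Myrf and the structural myelin genes Mbp and Opalin were low in NPC. Myrf fell to 0.407 RPKM in NPC, against 11.9 RPKM in ESC, where it had the highest exon level of the 9 genes (authors' deposited table, log2 fold change -5.06, adjusted p = 3.73e-36). Its NPC level lay within the receptor range, with 28.8% of receptor genes at or above it. Mbp was at 0.241 RPKM in NPC and 0.774 RPKM in ESC (authors' deposited table, log2 fold change -1.82, adjusted p = 0.0570), and did not pass. Opalin was at 0.275 RPKM in NPC and 0.541 RPKM in ESC (authors' deposited table, log2 fold change -1.06, adjusted p = 0.620), and did not pass either. Of the receptor genes, 55.2% lay at or above the Mbp level in NPC, and 49.9% at or above that of Opalin, while in ESC 0.490% and 0.630% lay at or above these genes. In NPC, then, Cnp, Omg and Enpp2 stood above the receptor range, and Myrf, Mbp and Opalin lay within it. Summed over stages, the 2 precursor genes came to 5.97 RPKM in NPC and 4.07 RPKM in ESC, and the 6 myelin-stage genes to 279 RPKM in NPC and 25.4 RPKM in ESC, with Cnp and Omg making up most of the NPC sum.

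In NPC the exon levels ran, from high to low, Cnp, Omg, Enpp2, Pdgfra, Gpr17, Myrf, Opalin, Mbp and Cspg4. In ESC they ran Myrf, Cnp, Pdgfra, Enpp2, Mbp, Cspg4, Opalin, Omg and Gpr17. With 1 pooled value each, neighbours in these orders cannot be separated.

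Introns, which report on unspliced RNA, gave a value for each replicate. The number of whole intron reads behind each value was recovered from the steps of the RPKM scale. An RPKM level is comparable between genes, but its precision is not: the introns of Omg span 875 bases and those of Mbp 100723. In NPC replicate 1 the 239 receptor genes with introns had a median of 0.747 RPKM, against 0.0828 RPKM in NPC replicate 2, 0.0291 RPKM in ESC replicate 1 and 0 RPKM in ESC replicate 2. The share of receptor genes at or above a gene, and the difference without NPC replicate 1, are therefore given beside the intron results.

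**Figure D2:**
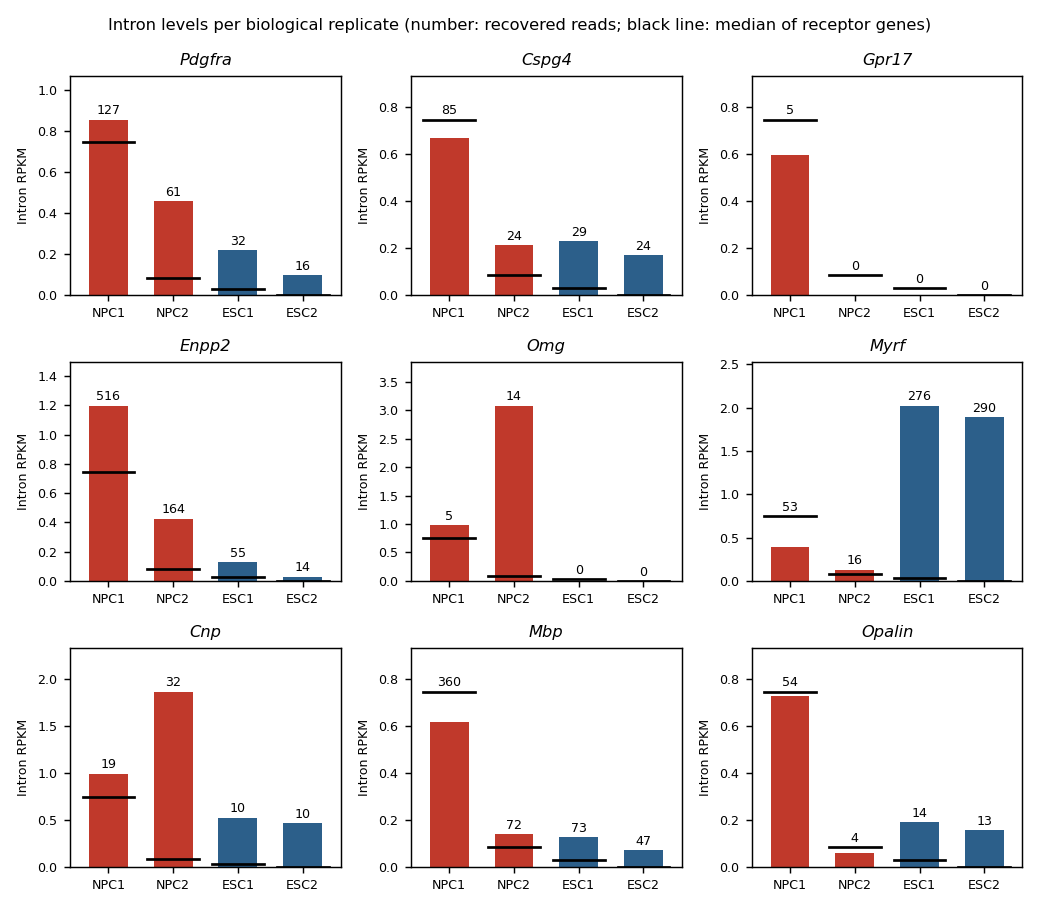
Intron RPKM of each of the 9 genes in the 2 NPC and 2 ESC replicates (bars, from 0), with the recovered read count above each bar (for Gpr17 at its largest possible intron length) and the median of 239 receptor genes in that replicate as a black line. Omg and Cnp stand furthest above the line in NPC replicate 2, at 3.08 and 1.87 RPKM, and Myrf stands above it in both ESC replicates, at 2.02 and 1.89 RPKM.

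Omg introns were at 0.987 and 3.08 RPKM in NPC replicates 1 and 2, from 5 and 14 reads, and at 0 in both ESC replicates. The NPC mean of 2.04 ± 1.48 RPKM (SD, n = 2) was at least 3.63-fold higher than the level that 3 reads per ESC library would give, a floor that covers counting error only. In limma on log2(RPKM + 1) the difference was 1.51 (SE 0.278, adjusted p = 0.00114). Leaving out NPC replicate 1 gave 2.03, and leaving out NPC replicate 2 gave 0.99. With both ESC values at 0, these fits hold no spread of Omg itself, so only the sizes are given. In NPC replicate 1 26.8% of receptor genes lay at or above Omg, so that value was within the receptor range, and in NPC replicate 2 0.418% did. The size rests on few reads.

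The Omg intron lies at chr11:79316530-79317404 (mm9, minus strand, gene start 79317584), inside the intron span of Nf1 on the opposite strand (79153562 to 79391755). Nf1, a negative regulator of Ras, also rose in exons (33.9 RPKM in NPC and 8.04 RPKM in ESC; authors' deposited table, log2 fold change 1.95, adjusted p = 1.66e-13). With strand use not given in the sources used here, reads from either strand may be counted for both genes. At the intron level of Nf1, the Omg intron would hold 9.59 and 12.6 reads in NPC replicates 1 and 2, against the 5 and 14 found. It would hold 4.21 and 4.79 reads in ESC replicates 1 and 2, where 0 were found.

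Myrf introns were at 0.387 and 0.130 RPKM in NPC (53 and 16 reads) and at 2.02 and 1.89 RPKM in ESC (276 and 290 reads). The ESC replicates were close to each other. In limma Myrf fell by 1.24 on the log2(RPKM + 1) scale (SE 0.184, adjusted p = 0.000286). The mean was 0.259 ± 0.181 RPKM in NPC and 1.95 ± 0.0969 RPKM in ESC (SD, n = 2 each). In NPC 77.4% and 33.5% of receptor genes lay at or above Myrf in replicates 1 and 2, and in ESC none did in either replicate. Without NPC replicate 1 the Myrf difference was -1.39. The introns counted for Myrf (chr19:10284956-10315048, mm9, minus strand) reach beyond its listed start at 10293618, so they extend upstream of that start.

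Omg and Myrf were the only 2 of the 9 genes whose mean intron level was 1 RPKM or more, and both were called. Of the 8811 genes tested at that level in limma, 47.3% were called (4165 genes, 1167 higher and 2998 lower in NPC). The columns were used as deposited, and the median gene differed by -0.43 on the log2 scale. With the columns centred on the same median, 2185 genes were higher and 2165 lower, Omg was at 1.91 (limma adjusted p = 0.00874), and Myrf at -0.84 no longer passed (adjusted p = 0.0696). Without ESC replicate 1 or 2 the call count was 1686 or 1594, and without NPC replicate 2 it was 6574. Omg and Myrf kept their direction in each of these fits, which leave a lone replicate in a cell type.

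Cnp introns were at 0.994 and 1.87 RPKM in NPC (19 and 32 reads) and at 0.525 and 0.466 RPKM in ESC (10 reads each). The NPC mean was 2.89-fold the ESC mean. Of the receptor genes, 25.9% lay at or above Cnp in NPC replicate 1, against 0.418% in NPC replicate 2. With the level filter lowered to 0.1 RPKM, where all 9 genes were tested and 28.0% of 18070 genes were called, Cnp passed in limma beside Omg and Myrf (difference 0.68, SE 0.206, adjusted p = 0.0124). It did not pass with no filter (adjusted p = 0.0752). With the receptor median subtracted from each column, a choice made after seeing the data, the Cnp difference was 0.33 (limma adjusted p = 0.406). Leaving out NPC replicate 1 gave a Cnp difference of 0.94, and leaving out NPC replicate 2 gave 0.42.

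Enpp2 introns were at 1.20 and 0.425 RPKM in NPC (516 and 164 reads) and at 0.128 and 0.0290 RPKM in ESC (55 and 14 reads). The limma difference at the lower filter was 0.72 (SE 0.298, adjusted p = 0.0718) and did not pass. It was 0.40 with NPC replicate 1 left out and 0.39 with the receptor median subtracted. In NPC replicate 1 11.7% of receptor genes lay at or above Enpp2, and in NPC replicate 2 5.44%. Pdgfra introns were at 0.856 and 0.459 RPKM in NPC (127 and 61 reads) and at 0.217 and 0.0961 RPKM in ESC (32 and 16 reads). The limma difference for Pdgfra was 0.51 (SE 0.292, adjusted p = 0.207) at the lower filter, which did not pass. The Pdgfra difference was 0.34 with NPC replicate 1 left out and 0.11 with the receptor median subtracted. Pdgfra in NPC replicate 1 was close to the receptor median of that replicate, and in NPC replicate 2 it was above the 95th percentile of receptor genes (0.449 RPKM).

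The remaining 4 genes were highest in NPC replicate 1. Cspg4 introns were at 0.667 and 0.210 RPKM in NPC and at 0.229 and 0.168 RPKM in ESC. Mbp introns were at 0.617 and 0.138 RPKM in NPC and at 0.126 and 0.0718 RPKM in ESC. Opalin introns were at 0.728 and 0.0602 RPKM in NPC and at 0.190 and 0.156 RPKM in ESC. NPC replicate 2 lay between the ESC replicates for Cspg4, slightly above both for Mbp and below both for Opalin. All 3 genes lay below the receptor median in NPC replicate 1, and without that replicate their differences on the log2(RPKM + 1) scale were 0.02, 0.05 and -0.15. Gpr17 was at 0.597 RPKM in NPC replicate 1 and at 0 in the other 3 replicates. Its steps allowed 5 intron lengths, of which the largest was taken; at that length the value is 5 reads, and at a shorter one it is fewer. No fold is given because the NPC mean was under the level of 3 reads. None of these 4 passed in limma at the lower filter (adjusted p between 0.576 and 0.678).

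Gpr17 lies inside the intron span of Lims2 on the opposite strand. Lims2, an adaptor of focal adhesions, was itself low in exons (0.328 RPKM in NPC and 0.466 RPKM in ESC; authors' deposited table, adjusted p = 0.764). At the intron level of Lims2 and the same largest length, the Gpr17 introns would hold 4.26 reads in NPC replicate 1 and at most 0.682 in any other replicate, against the 5 and 0 found.

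**Figure D3:**
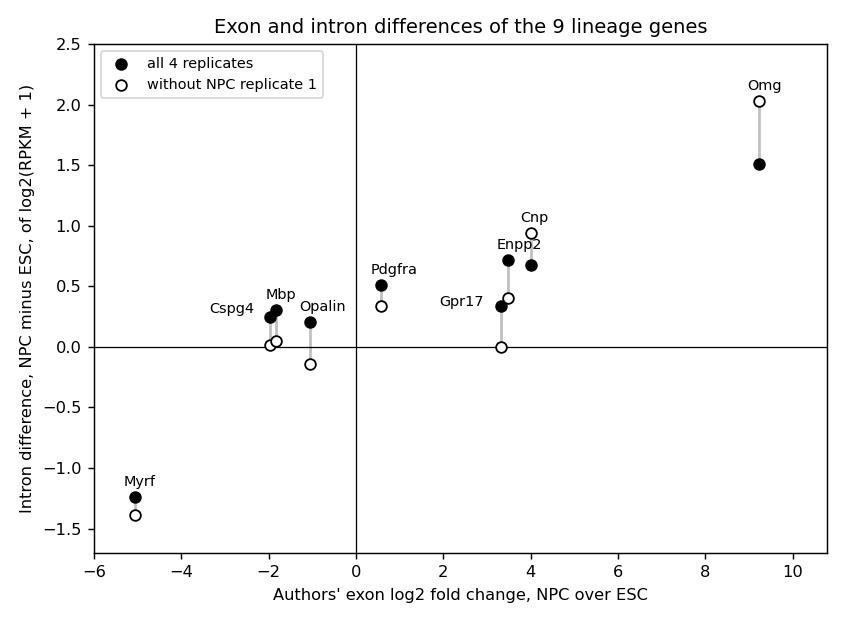
The authors' exon log2 fold change (horizontal) and the intron difference of log2(RPKM + 1) (vertical), NPC over ESC, for the 9 genes, with all 4 replicates (filled) and without NPC replicate 1 (open). Omg is highest and Myrf lowest on both axes, and the open points of Cspg4, Mbp and Gpr17 lie near 0 on the vertical axis.

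By distance over log2(RPKM + 1) of the 2 exon and 4 intron values, among genes whose mean exon level was 1 RPKM or more, the closest genes to Omg were Mro (distance 0.569) and Gabrg1 (0.625). They were at 60.8 and 55.7 RPKM in NPC exons. The closest to Myrf were Cyb561 (distance 0.341), Ankrd35 (0.352) and Zyg11a (0.396), at 11.0, 11.9 and 13.4 RPKM in ESC exons.

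The wider lineage was read from lists in the authors' deposited table, counting genes whose mean was 1 RPKM or more. Each count stands against the 66.2% of all such genes that were called, 32.3% higher and 33.9% lower, and a list with a share near these is only described. Of 14 transcription factors of the lineage 9 were tested, 8 rose and 1 fell (median log2 fold change 7.37). Olig2 (448 RPKM in NPC and 0.686 RPKM in ESC) and Olig1 (391 RPKM in NPC and 0.846 RPKM in ESC), which specify the lineage, had the largest increases. Nkx6-2, a factor of mature oligodendrocytes, fell (0.0352 RPKM in NPC and 3.14 RPKM in ESC), and Tcf7l2, which acts at differentiation, had the smallest increase (6.26 RPKM in NPC and 1.16 RPKM in ESC). Sox10, which precursors and oligodendrocytes both need, was at 0.213 RPKM in NPC and 0.0946 RPKM in ESC, below the level tested. Nkx2-2 was at 0.557 RPKM in NPC and 0.979 RPKM in ESC. Sox10 and Nkx2-2 thus lay within the receptor range in NPC (upper limit 0.793 RPKM, the 95th percentile), unlike Olig1 and Olig2.

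Of 16 further precursor genes (Sox10 among them) 10 were tested, 8 rose and none fell (median 3.35). Ptprz1, a receptor phosphatase of glial precursors (240 RPKM in NPC and 0.650 RPKM in ESC), and Nxph1 (5.09 RPKM in NPC and 0.0263 RPKM in ESC) rose most, and Cacng4 (11.5 RPKM in NPC and 1.57 RPKM in ESC) and the matrix proteoglycan gene Vcan (164 RPKM in NPC and 17.5 RPKM in ESC) rose least. C1ql1 and Emid1 did not pass. Of 8 genes of committed precursors 5 were tested and 4 rose (median 4.22). Bcas1 (95.0 RPKM in NPC and 0.960 RPKM in ESC) and the calcium channel gene Itpr2 (32.5 RPKM in NPC and 0.596 RPKM in ESC) rose most, the kinase gene Fyn (261 RPKM in NPC and 14.6 RPKM in ESC) and Kif19a (6.67 RPKM in NPC and 0.303 RPKM in ESC) least, and Tns3 (34.6 RPKM in NPC and 36.4 RPKM in ESC) did not pass.

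Of 32 further myelin genes listed, 31 were found and 15 were tested, 5 rose and 7 fell, with a median of 0.55, and 16 lay below the level tested. The protease gene Adamts4 rose to 23.2 RPKM in NPC, against 0.796 RPKM in ESC. Ppp1r14a (0.621 RPKM in NPC and 22.5 RPKM in ESC) and Car2 (38.1 RPKM in NPC and 317 RPKM in ESC) fell most. Several genes that fell, such as the carbonic anhydrase Car2, the cytokinesis scaffold Anln and the tetraspanin Cd9, are used by many cell types. Also lower in NPC were Ugt8a (0.619 RPKM in NPC and 2.42 RPKM in ESC), Apod (1.29 RPKM in NPC and 9.22 RPKM in ESC) and Tspan2 (2.00 RPKM in NPC and 5.69 RPKM in ESC). The myelin-specific Mag (0.246 RPKM in NPC and 0.0441 RPKM in ESC), Mog (0.650 RPKM in NPC and 0.581 RPKM in ESC) and Mobp (0.555 RPKM in NPC and 0.405 RPKM in ESC) lay below the level tested, as Mbp and Opalin did.

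**Figure D4:**
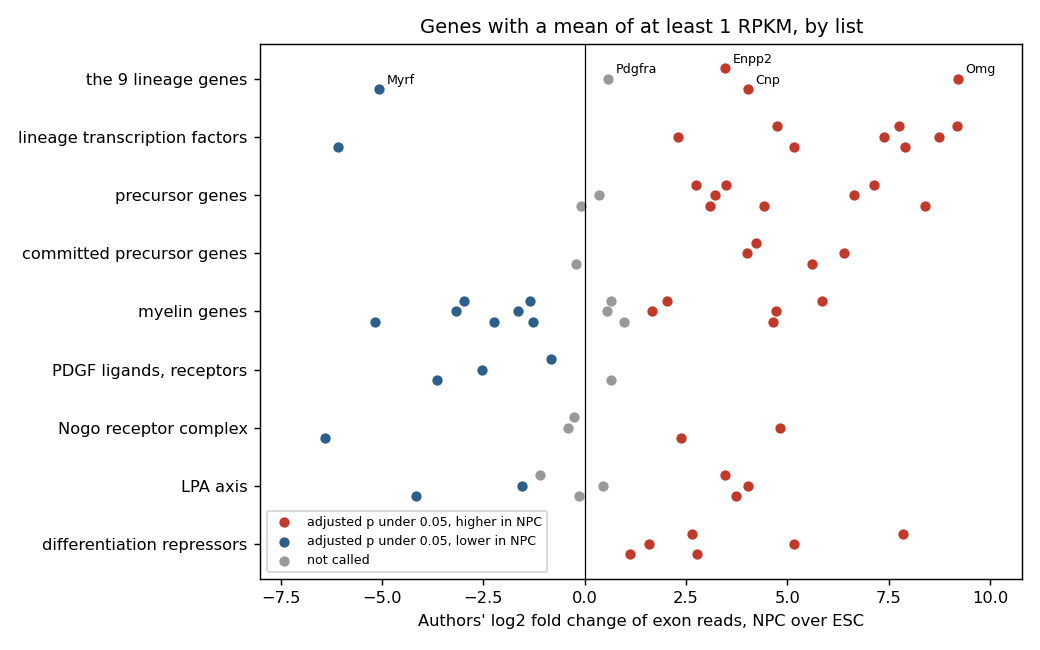
The authors' exon log2 fold change, NPC over ESC, of genes whose mean was 1 RPKM or more, 1 row per list, coloured by the call at an adjusted p of 0.05. Transcription factors and precursor genes lie mostly right of 0, while myelin genes lie on both sides, with 5 higher and 7 lower in NPC.

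Ligands and partners of the 9 genes were mixed. Of 4 tested PDGF ligands and other receptors 3 fell: the ligand Pdgfa of Pdgfra (34.5 RPKM in NPC and 56.9 RPKM in ESC), Pdgfc (2.86 RPKM in NPC and 15.0 RPKM in ESC) and the receptor Pdgfrb (0.269 RPKM in NPC and 2.87 RPKM in ESC). Of 5 tested genes around the Nogo receptor, through which Omg acts, Lingo1 (15.1 RPKM in NPC and 0.476 RPKM in ESC) and Tnfrsf19 (17.5 RPKM in NPC and 2.96 RPKM in ESC) rose and Ngfr (0.273 RPKM in NPC and 20.9 RPKM in ESC) fell. The receptor itself, Rtn4r, was at 0.394 RPKM in NPC and 0.407 RPKM in ESC. Of 8 tested genes of lysophosphatidic acid, Enpp2 included, 3 rose and 2 fell. The receptor Lpar6 (53.2 RPKM in NPC and 2.95 RPKM in ESC) and the lipid phosphatase Ppap2b (283 RPKM in NPC and 18.9 RPKM in ESC) rose with Enpp2, and Lpar5 (0.132 RPKM in NPC and 2.72 RPKM in ESC) and Ppap2c (1.44 RPKM in NPC and 3.99 RPKM in ESC) fell. Of 8 receptors related to Gpr17, 3 were tested and P2ry1 (34.9 RPKM in NPC and 1.91 RPKM in ESC) and P2ry12 (2.08 RPKM in NPC and 0.0305 RPKM in ESC) rose. All 6 repressors of oligodendrocyte differentiation rose (median 2.71), from Hes5 (74.8 RPKM in NPC and 0.263 RPKM in ESC) and Hey1 (225 RPKM in NPC and 5.59 RPKM in ESC) to Hes1 (329 RPKM in NPC and 101 RPKM in ESC) and Id4 (25.1 RPKM in NPC and 10.5 RPKM in ESC).

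By the authors' deposited table, 4 of 4 ESC markers fell in NPC and 4 of 4 tested neural progenitor markers rose. Other cell types that use these genes moved as follows. Of 7 pericyte and smooth muscle markers 4 were tested and all 4 fell. The list summed to 3.78 RPKM in NPC and 56.8 RPKM in ESC, where Tagln alone was at 36.0 RPKM. Below the level tested, Abcc9 (0.585 RPKM in NPC and 0.0262 RPKM in ESC) and Kcnj8 (0.442 RPKM in NPC and 0.0962 RPKM in ESC) went the other way. Rgs5 was at 0.445 RPKM in NPC and 0.726 RPKM in ESC. Of 7 fibroblast and feeder markers 4 fell and none rose, with sums of 9.64 RPKM in NPC and 29.1 RPKM in ESC. Their part in the Cspg4, Pdgfra and Myrf levels of ESC was not tested. Of 8 primitive endoderm markers, a cell type that uses Pdgfra, only Dab2 was tested and it rose (9.49 RPKM in NPC and 0.805 RPKM in ESC). Below the level tested, Foxa2 was at 1.43 RPKM in NPC and 0.341 RPKM in ESC. Sox7 was at 0.411 RPKM in NPC and 1.45 RPKM in ESC. Gata6, Gata4, Sox17, Cubn and Afp were at or below 0.624 RPKM in both cell types. Of 5 Schwann cell markers 4 were tested, 3 rose and 1 fell, with Cdh19 at 75.3 RPKM in NPC and 0.390 RPKM in ESC. Astrocyte markers rose in 4 of 5 tested, with a summed level of 503 RPKM in NPC and 4.92 RPKM in ESC, and neuronal markers rose in 2 and fell in 2 of 4 tested. Of 6 macrophage markers 2 were tested and both fell. Below the level tested, Csf1r (0.351 RPKM in NPC and 0.0751 RPKM in ESC), Cx3cr1 (0.384 RPKM in NPC and 0.0491 RPKM in ESC) and Ptprc (0.621 RPKM in NPC and 0.0781 RPKM in ESC) went the other way. Their NPC values lay within the receptor range. Aif1 was at 0.150 RPKM in NPC and 0.237 RPKM in ESC. The part of astrocytes or neurons in the Omg and Cnp levels of NPC was not tested.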

How the data were processed

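The authors deposited exon RPKM pooled per cell type, with log2 fold changes (NPC over ESC) and adjusted p-values from a comparison of their own, and intron values per biological replicate with technical libraries combined. The submitters' processing notes name DESeq2 1.10.0 and build mm9. Aligner, counter, annotation and strand setting: not given in the sources used here. Since the intron header names no unit, RPKM was inferred from the deposited values, where each gene moves in whole-read steps set by its intron length and a denominator per column (tolerance 0.001 reads; 18447 genes with signal). The steps fixed 1 length for 16799 genes; for 1648, Gpr17 among them, several were possible and the largest was taken. Summed intron reads were 6130157 and 5536926 in NPC and 6215907 and 7002635 in ESC.

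Exon calls are the deposited ones at 0.05, over named genes whose mean was 1 RPKM or more. The same filter was used for introns, where log2(RPKM + 1) went into limma 3.58.1 (R 4.3.3, mean-variance trend), 2 NPC against 2 ESC replicates, with Benjamini-Hochberg adjustment over all genes tested. Fold changes on this scale understate low genes. The limma p-values measure the spread between biological replicates of 1 clone and 1 line. Whether the authors' exon p-values count technical libraries as replicates is unknown. If they do, those p-values would overstate the evidence, so they are quoted only as deposited. The fit was tested on simulated data that held no background differing between columns. That test therefore does not bear on the receptor level of NPC replicate 1. The 9 genes and all lists were chosen with earlier results of these data known. All 9 genes are named; of longer lists the 2 largest and 2 smallest changes among called genes are, plus defining genes near 0 and, chosen after their values were seen, a few others. Lpar1 and Sox2 were not analysed here. A few genes that these rules name are not reported here. Olfactory and vomeronasal receptor genes served as a background level.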

Additional observations from a re-analysis of the deposited data

How the results depend on the processing

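In exons, raising the filter to a mean of 10 RPKM left 5473 genes called in place of 8277, and of the 9 lineage genes 2 higher (Omg and Cnp) and 0 lower, since Enpp2 and Myrf then drop out. With no filter 4 were higher and 2 lower, as Gpr17 and Cspg4 joined. A threshold of 0.01 left the 3 higher and 1 lower. In introns, the number of genes called in limma was between 1594 and 6574 when each replicate was left out in turn, against 4165. The lone replicate left in a cell type is then assumed to vary like the other group. Omg kept its direction under every alternative, between 0.99 and 4.89 on the log2 scale, and its call in each fit that kept all replicates. The higher values came with a pseudocount of 0.1 (4.22) and with limma-voom on recovered reads (4.89; 4668 genes called), both of which compress low values less. Myrf kept its direction under all alternatives, between -0.84 and -2.73. Among the fits that kept all replicates, it lost its call only with columns centred on the same median, where the cause was not tested. With the replicate number as a replicate block, limma called 3777 genes, Omg and Myrf among them. The numbers do not pair the samples by the labels, and the same-numbered deviations correlated at 0.019 over 8811 genes. With the receptor median subtracted, an alternative added after seeing the data, 3914 of 15113 genes were called, with Omg at 1.16 and Myrf at -1.52. Depth limits Omg and Gpr17 most, whose introns are short.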
